A study of Mus musculus with 9 samples.

Results

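Of the 9 mouse livers in the series, 6 lacked HP1α, and these 6 were pooled and set against the 3 control livers, to ask which transcripts moved the same way whenever HP1α was missing. The pool held 3 genotypes, chosen by their titles alone: HP1alpha_KO (genotype HP1a-/-, 2 livers), HP1alpha_beta_KO (HP1a-/-, HP1bliver-/-, 1 liver) and HP1alpha_gamma_KO (HP1a-/-, HP1gliver-/-, 3 livers). The controls are given as WT. All mice were 5 weeks old, on a background given as C57BL/6 and 129svPas, and the HP1β or HP1γ gene was deleted in the liver, with no driver named. Every mutant lacked HP1α, so the pool shares that loss and differs in whether HP1β or HP1γ was also deleted. Each library is named by an animal number, and nothing is said of litters, so p-values measure the spread between these samples. HP1alpha_beta_KO is 1 liver, and its values have no replicate check.

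The HP1 family (HP1α, HP1β, HP1γ) reads chromatin: its members bind histone H3 methylated on lysine 9 and help to pack heterochromatin and hold genes and repeats silent. Their genes are Cbx5, Cbx1 and Cbx3. They act with H3K9 methyltransferases such as Suv39h1 and with the TRIM corepressors Trim24, Trim28 and Trim33, which zinc finger proteins bring to DNA. In mouse liver, Trim24 is known to restrain tumours, and the title of the series assigns the HP1 proteins a tumour-suppressing role there.

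Ribosome-depleted RNA was sequenced to 26375545 to 36161177 reads in genes per library, except HP1alpha_KO replicate 1 with 16266423. Values below are normalised read counts per gene, not per length, so they compare libraries and not genes. Of 22701 genes, 13845 averaged 10 or more across the 9 libraries and were tested. At the edge of that filter, Zfp57 fell just under it and Eme1 just above it. Hepatocyte markers were high in every library, the summed level of 12 of them running from 3410750 to 4115920 in control and from 3844950 to 4315890 in the HP1α-null livers. In a principal component analysis the first component held 24.98% of the variance. It ran from HP1alpha_KO replicate 1 to HP1alpha_gamma_KO replicate 2, both mutants, with the controls between them. The second held 22.85% and ran from control replicate 1 to HP1alpha_gamma_KO replicate 1. Mutant minus control differences are given on the log2(value + 1) scale, with a standard error, from limma, a linear model fitted to all genes.

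The targeted gene was lower in every HP1α-null liver. Cbx5 (chr15:103191544-103239816, minus strand, GRCm38) was read at 1542, 1167 and 997 in control, at 576 and 501 in HP1alpha_KO, at 663 in HP1alpha_beta_KO, and at 663, 813 and 753 in HP1alpha_gamma_KO. The groups did not overlap, and the difference was -0.89 ± 0.17 (53.8% of control). Cbx5 transcripts were thus not at 0 in any mutant, and the deposited totals do not show which exons the reads cover. Cbx1 was lowest in the HP1alpha_beta_KO liver, at 217 against 803 to 1082 in control and 457 to 856 in the other mutants. Cbx3 was lowest in the 3 HP1alpha_gamma_KO livers, at 326 to 380 against 536 to 641 in control and 542 to 609 in the other mutants. Each library therefore went with its label for the gene or genes named in its genotype.

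No gene passed the limma test of 6 HP1α-null against 3 control livers (0% of 13845 at a Benjamini-Hochberg adjusted p under 0.05; smallest adjusted p 0.748). At an unadjusted p under 0.05 it marked 784 genes (5.66%), of which 420 were higher (3.03%) and 364 lower (2.63%). edgeR's quasi-likelihood test on the recovered reads also called 0 genes (smallest adjusted p 0.746) and marked 792 (5.72%) without adjustment. The Wald test of DESeq2 called 28 genes (0.202%), 10 higher (0.0722%) and 18 lower (0.13%), and marked 898 (6.49%) without adjustment. The DESeq2 calls depended on single livers. Leaving out 1 library at a time left between 7 calls (without control replicate 1, with 2 of the 28 among them) and 71 (without HP1alpha_gamma_KO replicate 2, with 25 of the 28). Nipal1 and Glul were called in all 9 of those fits.

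A count that needs no model asks whether all 6 mutant libraries lie on the same side of all 3 controls. That held for 435 genes (3.14% of those tested), 194 higher (1.4%) and 241 lower (1.74%). The higher ones had a median difference of 0.51 and included 30 genes beyond 1, while the lower ones had a median of -0.27 and included 14 beyond -1. Of the 435, 39 are unnamed gene models by their names in the deposited table. Of the same 435, 20 (17 higher and 3 lower) averaged under 10 in one group and so passed the filter through the group where they were high; Tmsb15b1, Slc39a5 and Aldh1l2, named below, are of this kind. The plot of all genes sets these against the 13410 genes whose libraries overlapped.

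**Figure D1:**
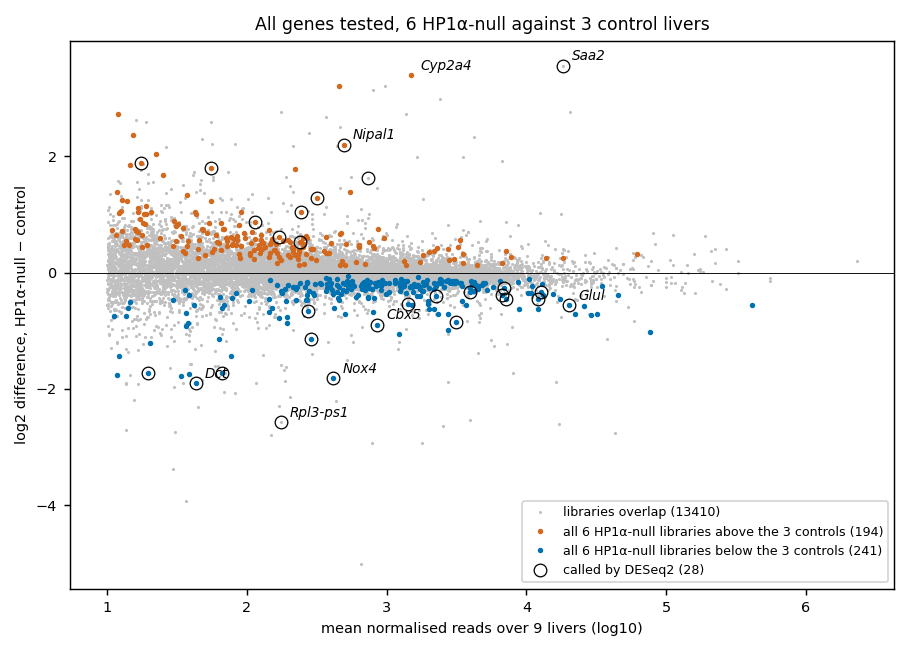
Each point is 1 of 13845 genes, with the mean normalised reads over 9 livers (log10) on the x axis and the pooled log2 difference, HP1α-null minus control, on the y axis. Orange (194) and blue (241) points are genes whose 6 HP1α-null libraries all lay above or below the 3 controls, and rings mark the 28 DESeq2 calls, which include Saa2 and Rpl3-ps1 although their libraries overlap.

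Asked by genotype, 5963 genes (43.1%) differed from control in the same direction in the 3 mutant means, 2824 higher (20.4%) and 3139 lower (22.7%). The 3 genotypes share the same 3 control livers, so these counts are a description and carry no test. A difference of at least 1 on the log2 scale in each genotype was met by 71 genes (0.513%), 29 higher (0.209%) and 42 lower (0.303%). Of those 71, 19 also had libraries that did not overlap with control. Nipal1, Cyp2a4, Slc22a26, Slc39a5 and Tmsb15b1 were among the higher of the 19, and Nox4, Olfm3, Dct, Fitm1, Hcrtr2, Capn8 and Mup13 among the lower.

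For genes on either side, the 150 bases upstream of the RefSeq start site are shown, to let the sequence be read beside the values: of the genes with the smallest p, the first 2 per direction whose window lies in no annotated exon. The table of promoters (RefSeq, GRCm38.p6) held a window for 9861 of the tested genes. Capitals mark CG dinucleotides, the sites of DNA methylation in mammals. Nipal1 and Atoh8 were higher, and Nox4 and Echdc2 lower, in all 6 HP1α-null livers. By the gene coordinates given below, the Nox4 window lies inside the Nox4 gene.
Nipal1 (chr5:72647645-72647794, plus strand): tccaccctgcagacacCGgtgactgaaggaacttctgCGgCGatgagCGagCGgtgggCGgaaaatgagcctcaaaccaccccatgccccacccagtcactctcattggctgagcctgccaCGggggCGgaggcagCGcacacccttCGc
Atoh8 (chr6:72235578-72235727, minus strand): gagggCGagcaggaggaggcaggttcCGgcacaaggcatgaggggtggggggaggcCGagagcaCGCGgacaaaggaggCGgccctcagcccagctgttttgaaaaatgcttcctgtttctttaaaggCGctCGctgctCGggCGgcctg
Nox4 (chr7:87246498-87246647, plus strand): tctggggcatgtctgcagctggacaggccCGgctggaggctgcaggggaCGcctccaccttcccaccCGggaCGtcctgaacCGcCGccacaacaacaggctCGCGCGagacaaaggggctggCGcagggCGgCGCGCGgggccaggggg
Echdc2 (chr4:108165286-108165435, plus strand): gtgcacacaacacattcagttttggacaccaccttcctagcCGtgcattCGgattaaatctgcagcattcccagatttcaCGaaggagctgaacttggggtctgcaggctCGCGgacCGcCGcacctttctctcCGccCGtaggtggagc
These windows held 10, 10, 14 and 9 CG dinucleotides in that order. Over all tested genes with a window the median was 11 per window, against 8 for the 135 non-overlapping higher genes and 11 for the 174 non-overlapping lower genes. None of the 4 windows held, on either strand, the STAT letters TTCNNNGAA, the TCF/LEF letters CTTTGA or the antioxidant element TGACNNNGC. Over tested genes these letters occurred in 3.68%, 6.06% and 8.42% of windows. The shares were 4.44%, 8.15% and 10.4% for the higher and 2.87%, 5.75% and 7.47% for the lower non-overlapping genes. A match is a run of letters and not a known site.

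Nipal1 stood furthest from control for its spread among the higher genes. Nipal1 (chr5:72647795-72671078), of a family of magnesium transporters, was read at 121, 164 and 113 in control. It was read at 1330 and 409 in HP1alpha_KO, 451 in HP1alpha_beta_KO, and 854, 435 and 545 in HP1alpha_gamma_KO. The lowest mutant was well above the highest control, and the difference was 2.20 ± 0.35, or 4.60-fold (DESeq2 adjusted p = 5.1e-06; limma adjusted p = 0.748). Its difference was 2.48 in HP1alpha_KO, 1.78 in HP1alpha_beta_KO and 2.16 in HP1alpha_gamma_KO. Atoh8 (chr6:72206177-72235577), a basic helix-loop-helix transcription factor, was read at 117, 142 and 161 in control. In the mutants it was read at 314 and 212, at 252, and at 408, 307 and 262, in the same order of genotypes. The difference was 1.04 ± 0.20, with each mutant above each control (DESeq2 adjusted p = 0.0051).

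Among further genes with all 6 mutants above control were a transporter, a zinc finger gene and a hexokinase. Slc16a5, a monocarboxylate transporter family member, was read at 163, 238 and 96.5 in control and from 283 to 558 in the mutants, with a median of 379 (1.29 ± 0.28). An antisense gene, Gm11695, overlaps it, and the strand setting of the counting is not given in the sources used here. Zfp334, a zinc finger gene, was read at 66.7, 68.6 and 83.3 in control and from 107 to 180 in the mutants (0.87 ± 0.18). Hk3, a hexokinase of myeloid cells, was read at 139, 116 and 118 in control and from 154 to 211 in the mutants (0.61 ± 0.13), and overlaps Unc5a on the opposite strand. DESeq2 called these 3 (adjusted p = 0.017, 0.019 and 0.023) in 6, 7 and 2 of the 9 fits without 1 library.

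A further 7 genes were also higher in all 6 mutants. Cysltr1, a receptor for cysteinyl leukotrienes, was at 29.0 to 36.5 in control and 47.1 to 61.5 in the mutants (0.72 ± 0.16). Il18bp, which binds and blocks interleukin 18, was at 310 to 343 in control and 409 to 750 in the mutants (0.66 ± 0.17). It overlaps Numa1 on the opposite strand, which differed by 0.06 ± 0.07. Tnc, the matrix glycoprotein tenascin C, was at 33.8 to 53.3 and 64.7 to 94.3 (0.86 ± 0.20), and Ccdc80, a secreted matrix protein, at 426 to 573 and 630 to 766 (0.44 ± 0.11). Arrdc1, an arrestin domain protein, differed by 0.68 ± 0.16, Zfp605 by 0.63 ± 0.16 and Clca1 by 0.53 ± 0.12. The identifier deposited with the name Clca1, ENSMUSG00000056025, is named Clca3a1 in GENCODE M21. Of these 7, DESeq2 called that gene (adjusted p = 0.039, in 1 of 9 fits without 1 library).

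Among non-overlapping higher genes with a group mean of at least 50, Cyp2a4 and Slc22a26, both on the female-biased list, differed most. Cyp2a4, a steroid hydroxylase, was read at 48.0, 589 and 88.0 in control. It was read at 1204 and 765, at 684, and at 6455, 756 and 2833 in the mutants (3.39 ± 0.88). Control replicate 2 lay close under the lowest mutants, while HP1alpha_gamma_KO replicate 1 lay far above the rest. Slc22a26, an organic anion transporter family member, was at 16.0 to 66.7 in control and 88.6 to 2718 in the mutants, with the same highest library (3.21 ± 0.96). These genes belong to families of near-identical genes, so reads may be split between copies. Pnpla3, a lipase of lipid droplets, was at 17.8 to 40.3 in control and 40.4 to 133 in the mutants (1.24 ± 0.39), so the groups only just parted. None of these 3 was called by DESeq2 (adjusted p = 0.22, 0.072 and 0.22).

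Glul, glutamine synthetase of the hepatocytes next to the central vein, led the lower genes. Glul (chr1:153899944-153909723) was read at 25258, 25800 and 25773 in control. It was read at 16870 and 16226 in HP1alpha_KO, 18050 in HP1alpha_beta_KO, and 19836, 18367 and 15365 in HP1alpha_gamma_KO. The controls were within a narrow band and every mutant lay under it, by -0.56 ± 0.10, or 67.9% of control (DESeq2 adjusted p = 9.5e-05). Because these are whole livers, fewer cells of a type and less RNA per cell cannot be told apart. Nox4 (chr7:87246096-87398710), an NADPH oxidase that makes hydrogen peroxide, was read at 833, 640 and 848 in control. It was read at 363 and 350 in HP1alpha_KO, 146 in HP1alpha_beta_KO, and 262, 172 and 125 in HP1alpha_gamma_KO. The difference was -1.82 ± 0.34, or 28.4% of control (DESeq2 adjusted p = 0.0017, called in 8 of 9 fits without 1 library). By genotype it was -1.10, -2.38 and -2.10, and Nox4 was the one DESeq2 call that DESeq2 also called among the mutant genotypes (adjusted p = 0.048). For Saa2, another of the DESeq2 calls, that test among genotypes returned no p-value.

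A further 6 genes, most of them metabolic enzymes, differed by -0.34 to -0.85. Entpd5, a nucleotidase of the endoplasmic reticulum, was at 7794 to 8179 in control and 5200 to 6393 in the mutants (-0.39 ± 0.08). Echdc2, a mitochondrial protein of the enoyl-CoA hydratase family, was at 4342 to 4663 and 3420 to 4026 (-0.34 ± 0.07). Ephx1, microsomal epoxide hydrolase, was at 8345 to 9243 and 5411 to 7367 (-0.44 ± 0.10), and Akr1c13, an aldo-keto reductase, at 2627 to 2797 and 1759 to 2260 (-0.41 ± 0.09). Cryl1, an enzyme of the gulonate pathway, was at 339 to 399 and 173 to 269 (-0.66 ± 0.15). Hsd3b3, a steroid dehydrogenase with near copies and with Zfp697 on the opposite strand, was at 3913 to 4770 and 1798 to 3428 (-0.85 ± 0.19). In each of these 6 the highest mutant lay below the lowest control, and DESeq2 called all 6 (adjusted p = 0.0059 for Entpd5 to 0.038 for Hsd3b3), in 2 (Echdc2) to 6 (Entpd5, Akr1c13) of the 9 fits without 1 library. Gstm1, a glutathione transferase, Aadac, a lipid esterase, and Creg1, a secreted glycoprotein, were also called lower by DESeq2 (adjusted p = 0.015, 0.039 and 0.017). Gstm1 read 14433 to 14762 in control and 10904 to 12620 in the mutants.

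Further lower genes included Dct, at 107 or less in every liver, and Colec12, at 1016 or more in every liver. Olfm3, an olfactomedin family gene, was read at 189, 67.6 and 122 in control and from 19.1 to 56.8 in the mutants (-1.72 ± 0.40; DESeq2 adjusted p = 0.016). Dct, an enzyme of melanin synthesis, was at 50.5 to 107 in control and 6.62 to 40.1 in the mutants (-1.90 ± 0.49; DESeq2 adjusted p = 0.039). Fitm1, a fat storage protein, differed by -1.44 ± 0.35 and the orexin receptor Hcrtr2 by -1.74 ± 0.60, neither called by DESeq2. Capn8, a calpain protease, was at 181 in control replicate 1, at 24.3 or less in the other controls and at 7.29 to 18.9 in the mutants, with a difference of -1.78 ± 0.62 that was -0.79 without control replicate 1. Colec12, a scavenger receptor, was at 1706 to 1853 and 1016 to 1545 (-0.55 ± 0.12), and Nucb2, the precursor of nesfatin, at 237 to 299 and 127 to 230 (-0.76 ± 0.18). Of the last pair DESeq2 called Colec12 (adjusted p = 0.039).

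**Figure D2:**
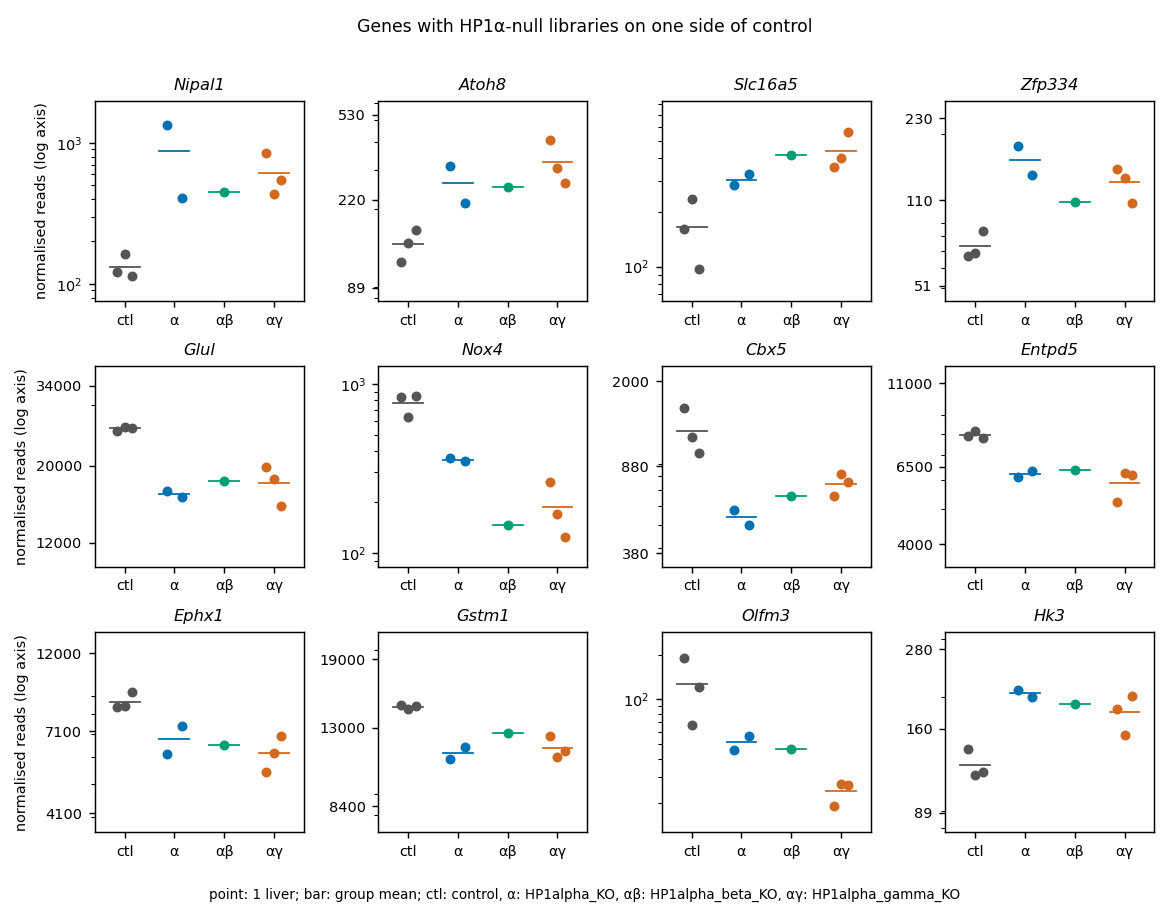
Normalised reads (log axis) of 12 genes in each liver, with a point per liver and a bar at the group mean; x positions are control (ctl), HP1alpha_KO (α), HP1alpha_beta_KO (αβ) and HP1alpha_gamma_KO (αγ). In each panel all 6 HP1α-null livers lie on the same side of the 3 controls, as for Glul at 15365 to 19836 against 25258 to 25800.

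The remaining DESeq2 calls were less even across livers, and are named after their values were seen. Saa2, an acute phase protein, was read at 583, 447 and 241 in control. It was read at 119327 and 25419, at 9374, and at 7154, 262 and 198 in the mutants. HP1alpha_gamma_KO replicates 2 and 3 thus lay with or below the controls (3.56 ± 1.83; DESeq2 adjusted p = 0.038). Rpl3-ps1, a processed pseudogene, was at 720 and 580 in 2 controls but at 31.8 in control replicate 3, inside the mutant range of 30.4 to 62.4. Acnat2, an acyltransferase of peroxisomes, overlapped through control replicate 2 (547) and HP1alpha_KO replicate 2 (488), with a difference of 1.63 ± 0.40. Mup13, a major urinary protein gene with near copies, was at 18.1 to 47.8 in control and 5.50 to 17.9 in the mutants. The last 3 calls carry the names 5730507C01Rik (11.6 to 30.9 in control, 39.6 to 129 in the mutants), 9130409I23Rik (at least 376 in control, 112 to 299 in the mutants, -1.14 ± 0.27) and Gm13248. Gm13248, named Zfp993 in GENCODE M21 and so a zinc finger gene, was at 3.81 to 8.43 in control and 13.8 to 32.5 in the mutants (1.89 ± 0.35). Its control mean was below 10, so it passed the filter through the mutants.

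The plot of pooled and per-genotype differences sets the 3 genotypes side by side; they share the control livers. Against control, the limma contrast of each genotype called 0 genes. For Cysltr1 the differences were 0.73, 0.77 and 0.71 in HP1alpha_KO, HP1alpha_beta_KO and HP1alpha_gamma_KO, and for Ccdc80 0.41, 0.48 and 0.44. For Ephx1 they were -0.37, -0.42 and -0.50. For Olfm3 they were -1.17, -1.31 and -2.23, and for Colec12 -0.33, -0.55 and -0.69. All 28 DESeq2 calls had the same sign in the 3 genotypes, which for 25 of them is fixed because their libraries did not overlap with control.

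**Figure D3:**
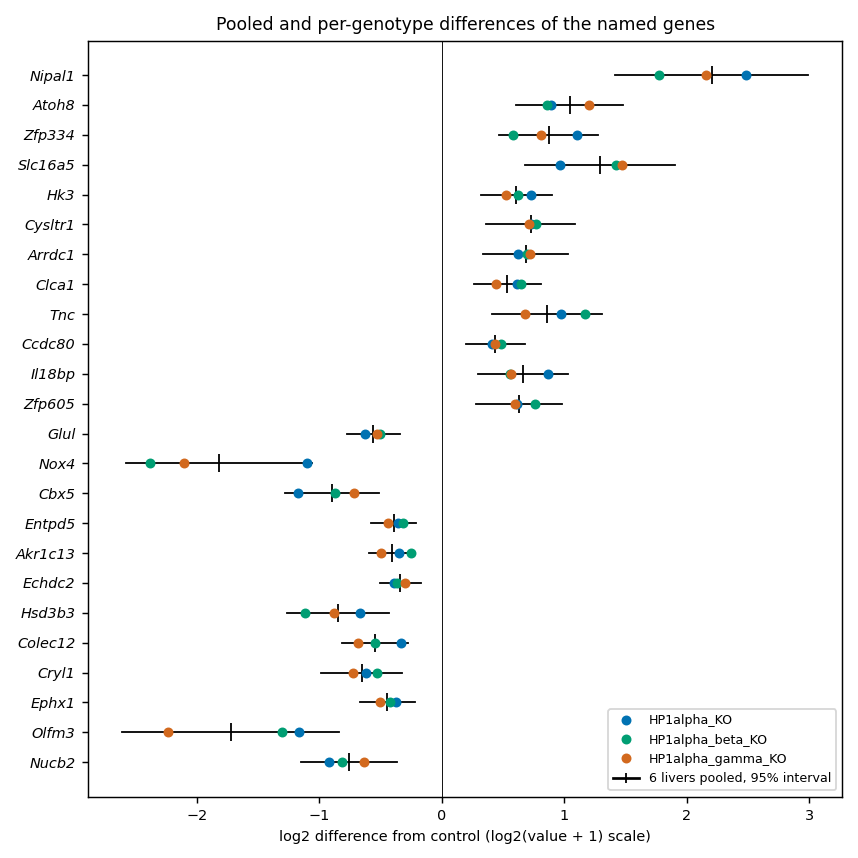
Log2 difference from control (x axis) of the 12 genes per direction with the smallest p among those whose libraries did not overlap, with coloured points for the 3 genotypes and a black tick and line for the 6 livers pooled and their 95% interval. The 3 genotypes lie on one side of 0 for each gene, which the choice of non-overlapping genes fixes, and Nox4 ranges from -2.38 to -1.10.

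Whether the mutants differed among themselves was tested in a fit of 4 groups. The limma F test of equal means in the 3 mutant genotypes called 0 genes (smallest adjusted p 0.295), and marked 1488 (10.7%) without adjustment. edgeR called 0 as well. The DESeq2 likelihood ratio test called 291 (2.1%), and 4 of the 435 non-overlapping genes were among them. The smallest F p belonged to Cyp2c39, a cytochrome P450 of a family of near copies. It was read at 33.8, 83.8 and 46.8 in control and at 175, 60.6 and 87.1 in HP1alpha_gamma_KO. In HP1alpha_KO it was at 3258 and 1764 and in HP1alpha_beta_KO at 1690. Wdfy1, an adaptor of endosomes, followed the same pattern, at 241 to 326 in control, 644 to 703 in HP1alpha_KO and HP1alpha_beta_KO, and 299 to 335 in HP1alpha_gamma_KO. P2rx4, an ATP-gated channel, was at 1937 to 2220 in HP1alpha_KO and HP1alpha_beta_KO and at 1271 to 1346 in HP1alpha_gamma_KO, against 1364 to 1510 in control.

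Other genes were highest or lowest in another genotype. Meis1, a homeobox gene, was at 200 to 217 in HP1alpha_gamma_KO, 145 in HP1alpha_beta_KO and 96.4 to 103 in HP1alpha_KO, against 121 to 145 in control. Clec2h, a C-type lectin, was at 4.79 in the HP1alpha_beta_KO liver and at 106 to 644 in the other 8. Dpy19l3, a mannosyltransferase, was among the non-overlapping higher genes (1.39 ± 0.44) but unevenly so. It was at 190 to 297 in control, 308 and 313 in HP1alpha_KO, 555 in HP1alpha_beta_KO and 778 to 1343 in HP1alpha_gamma_KO. DESeq2 called each of these 6 genes among the mutant genotypes (adjusted p from 4.8e-15 for Cyp2c39 to 0.00091 for Meis1), while limma called none of them.

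**Figure D4:**
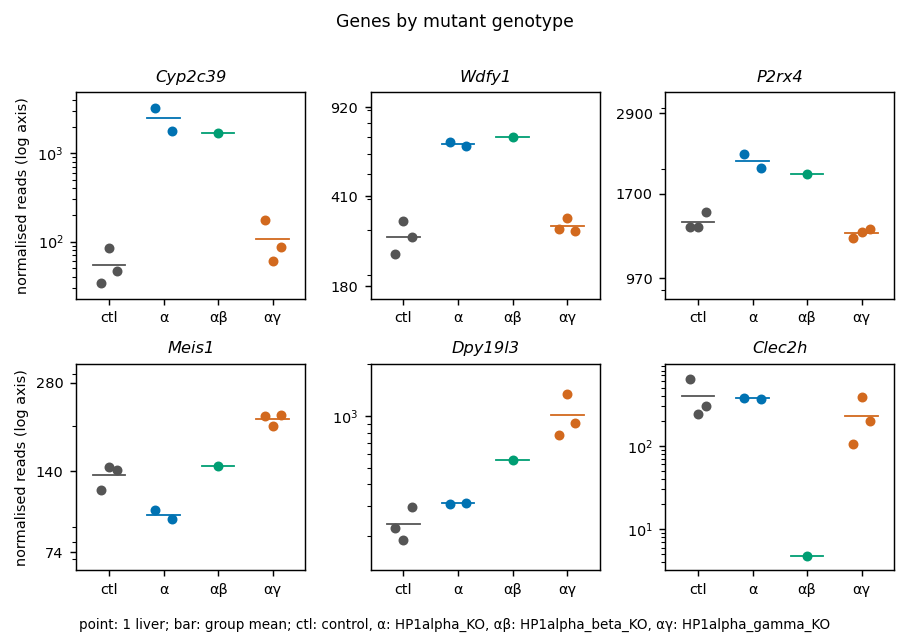
Normalised reads (log axis) of 6 genes in each liver, with a point per liver and a bar at the group mean, for control (ctl), HP1alpha_KO (α), HP1alpha_beta_KO (αβ) and HP1alpha_gamma_KO (αγ). Cyp2c39, Wdfy1 and P2rx4 in HP1alpha_gamma_KO lie near control, Dpy19l3 in HP1alpha_KO lies just above it, and Clec2h is at 4.79 in the αβ liver.

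Gene lists were read against all 13845 genes, of which 6686 were higher and 7159 lower, with a median difference of -0.01 and 3.14% not overlapping. The lists and their members were chosen with earlier results of these data known, so their counts and medians are a description and carry no test. limma called no member of any list. Some genes are counted in more than 1 list, as Trim24, Gstp1 and Slco1a1 are below. Of 28 HP1 proteins and partners tested, 11 were higher and 17 lower (median -0.05), and 3 did not overlap. These were Cbx5, the methyltransferase Suv39h1 (198 to 242 in control, 144 to 188 in the mutants, -0.28 ± 0.13) and the corepressor Trim24 (580 to 779 in control, 855 to 1336 in the mutants, 0.60 ± 0.18). Of 293 zinc finger genes with a Zfp number in the deposited table, which leaves out Gm13248, 190 were higher and 103 lower (median 0.06), and 4 and 3 did not overlap. Their median was -0.06 in HP1alpha_KO, 0.14 in HP1alpha_beta_KO and 0.14 in HP1alpha_gamma_KO.

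Pericentral hepatocyte genes, which surround the central vein under Wnt signals, were lower in most members. Of 24 tested, 21 were lower (median -0.23), 3 did not overlap and DESeq2 called Glul. The list's median per library lay between -0.31 and -0.18 in the mutants and between -0.02 and 0.01 in control, so the libraries did not overlap. The 3 were Glul, Cyp1a2, a caffeine-metabolising P450, at 14371 to 16839 in control and 6544 to 13310 in the mutants (-0.62 ± 0.20), and Gulo, of vitamin C synthesis, at 15010 to 16148 and 9788 to 13153 (-0.39 ± 0.11). Aldh3a2 differed by -0.56 ± 0.17 with HP1alpha_gamma_KO replicate 1 (5675) among the controls. The median by genotype was -0.25, -0.30 and -0.32 in HP1alpha_KO, HP1alpha_beta_KO and HP1alpha_gamma_KO. Of 20 periportal genes, from the other end of the lobule, 13 were lower and none parted the groups (median -0.07).

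Antioxidant genes under NRF2 were lower in part. Of 31 tested, 23 were lower and 8 higher (median -0.17), and 5 did not overlap, all lower: Ephx1, Gstm1, Gstm3, Gstp1 and Aox1. DESeq2 called Ephx1 and Gstm1. Gstm3 was at 978 to 1107 in control and 424 to 911 in the mutants (-0.67 ± 0.20), and the aldehyde oxidase Aox1 at 2784 to 3463 and 1064 to 2483 (-0.71 ± 0.23). G6pdx, of the pentose phosphate pathway, went the other way (0.47 ± 0.20). The list's median per library was -0.22 to -0.08 in the mutants and -0.02 to 0.05 in control. Without the HP1alpha_gamma_KO livers the list's median was -0.07. Of 9 NADPH oxidase subunits, 6 were higher and 3 lower (median 0.25), with Nox4 the one member that did not overlap. Cyba and Cybb, of the phagocyte oxidase, differed by 0.48 ± 0.23 and 0.27 ± 0.20.

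Sex-biased liver genes, which follow the rhythm of growth hormone, split by direction but varied widely among livers of one group. Of 30 female-biased genes, 26 were higher (median 0.96), 5 did not overlap (Nipal1, Cyp2a4, Slc22a26, Trim24 and Fmo4) and DESeq2 called Nipal1. Of 39 male-biased genes, 36 were lower (median -0.78), and Slco1a1 and Gstp1 did not overlap. The female-biased median per library ran from -0.53 to 0.75 in control and from 0.37 to 2.68 in the mutants, so the groups overlapped through control replicate 2. The male-biased median ran from -0.34 to 0.39 and from -2.60 to 0.07. HP1alpha_gamma_KO replicate 1 stood at the far end of both lists, and without it the medians were 0.65 and -0.48. With edgeR's fold changes the female-biased median was 1.45. Susd4 and Selenbp2, both male-biased, differed by -2.29 ± 0.74 and -2.60 ± 0.95. Prlr, the prolactin receptor, was at 2363 to 3286 in control and 3128 to 5321 in the mutants (0.70 ± 0.19). The labels give no sex, and the Y-linked gene Ddx3y was at 3036 to 4549 in all 9 livers.

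Markers of other cells were also followed. All 13 Kupffer cell markers tested were higher (median 0.40; Adgre1 was not used here), but none parted the groups. Their summed level was 20059 to 22524 in control and 19888 to 32190 in the mutants. Cd68, a lysosomal protein of macrophages, was at 130 to 158 in control and 157 to 280 in the mutants (0.62 ± 0.19), and HP1alpha_gamma_KO replicate 2 was the lowest of these. The list's median was 0.56, 0.69 and 0.21 in HP1alpha_KO, HP1alpha_beta_KO and HP1alpha_gamma_KO, and 0.60 without the last. All 5 neutrophil markers tested were higher (median 1.29), and Cxcr2 (8.89 to 11.4 against 13.7 to 25.8) did not overlap. The rest of the 12 listed averaged under 10 over the 9 livers and were not tested. Summed over all 12, the levels were 124 to 132 in control and 96.5 to 629 in the mutants. The median was 0.80 without the HP1alpha_KO livers and 2.01 without HP1alpha_gamma_KO. Of 12 stellate cell markers 11 were higher (median 0.23, and 0.14 with array weights), with Des (82.9 to 98.3 against 106 to 135) not overlapping. The part of these cells in Hk3, Cysltr1, Il18bp, Tnc and Ccdc80, which were higher in the same livers, was not tested.

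Markers of the other cell types followed. Of 12 sinusoidal endothelial markers 9 were higher (median 0.05), of 7 cholangiocyte markers 6 (median 0.20) and of 7 lymphocyte markers 5 (median 0.14), with no member that parted the groups. Without control replicate 1 the lymphocyte median was -0.25 and the cholangiocyte median 0.01. Of 8 erythroid markers 6 were higher (median 0.29), but the median was -0.20 without control replicate 1. Alas2, the erythroid enzyme of haem synthesis, was at 2839 to 4710 in control and 748 to 2812 in the mutants (-0.99 ± 0.38). Of 12 hepatocyte markers 6 were higher and 6 lower (median -0.01), and the transcription factor Hnf4a (15970 to 16479 against 16661 to 22712, 0.25 ± 0.10) did not overlap. Of 22 hepatocyte transcription factors 10 were higher and 12 lower (median -0.05).

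Inflammatory lists had medians that ranged between genotypes. Of 32 acute phase proteins 29 were higher (median 0.43), yet none parted the groups, and DESeq2 called Saa2. The median was 1.16 in HP1alpha_KO, 0.56 in HP1alpha_beta_KO and 0.16 in HP1alpha_gamma_KO, and it was 0.23 without the HP1alpha_KO livers and 0.95 without HP1alpha_gamma_KO. The metal-binding Mt1 was at 280 to 2468 in control and 1373 to 9495 in the mutants (1.99 ± 0.75). Of 45 interferon-stimulated genes 31 were higher (median 0.10), and the genotype medians were -0.17, -0.08 and 0.35. That median was -0.19 without the HP1alpha_gamma_KO livers and -0.13 without control replicate 2. Zbp1, a sensor of nucleic acids, was at 112 to 245 in control and 218 to 330 in the mutants (0.80 ± 0.23). Of 17 genes of MHC class I antigen presentation 15 were higher (median 0.11), with Tapbp (2565 to 2958 against 2965 to 3515) and Erap1 not overlapping. Of 31 integrated and endoplasmic reticulum stress genes 22 were higher (median 0.22). By genotype that median was 0.70, 0.05 and -0.00, and it was 0.01 without the HP1alpha_KO livers. Aldh1l2, of mitochondrial one-carbon metabolism, was at 3.56 to 5.71 in control and 6.62 to 29.4 in the mutants (1.38 ± 0.45), a control level under the filter.

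Of 24 oncofetal and liver cancer markers tested 21 were higher and 3 lower (median 0.27), with no limma or DESeq2 call. The library medians were -0.12 to 0.09 in control and 0.14 to 0.42 in the mutants. Gpc3, a fetal liver proteoglycan, was at 22.9 to 25.8 in control and 28.0 to 72.0 in the mutants (1.01 ± 0.29). The HP1alpha_beta_KO liver was the lowest of these, with a difference of 0.20. Anxa2, a membrane-binding annexin, was at 248 to 357 and 385 to 491 (0.51 ± 0.13). Scd2, a desaturase also counted under fatty acid synthesis, was at 143 to 158 in control and 159 to 222 in the mutants. For Scd2 the groups thus only just parted. H19, an imprinted fetal RNA, was at 0.889 to 11.4 in control and 11.2 to 347 in the mutants, overlapping through HP1alpha_KO replicate 2. Anxa2 and Vim (458 to 524 in control, 519 to 883 in the mutants, 0.46 ± 0.17) are also expressed by non-parenchymal cells, whose Kupffer and stellate markers were higher in 13 of 13 and 11 of 12 in the same livers, and the part of those cells in this list was not tested.

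Metabolic lists had medians from -0.15 to 0.22. Of 24 cholesterol synthesis genes 19 were higher (median 0.22), with Hmgcs1 at 4259 to 7467 in control and 6141 to 21125 in the mutants, and the median was 0.09 without the HP1alpha_KO livers. Of 25 genes that make fatty acids and triglycerides 15 were higher (median 0.04), of 30 PPARα targets 22 (median 0.07) and of 20 glucose genes 12 (median 0.04). Cyp4a32, a fatty acid hydroxylase, was at 410 to 827 in control and 827 to 1214 in the mutants (0.75 ± 0.20). Of 24 bile acid genes 17 were lower (median -0.14), and Amacr, Slco1b2 and Slco1a1 did not overlap. Slco1b2, an uptake transporter, was at 49681 to 56492 in control and 33593 to 46582 in the mutants (-0.38 ± 0.12). Of 12 mitochondrially encoded genes 10 were lower (median -0.15), and of 17 heat shock genes 14 (median -0.17), none parting the groups. The mitochondrial median was -0.05 without control replicate 1 and -0.25 without control replicate 2, and the heat shock median -0.09 without control replicate 3 and -0.27 without control replicate 2. Of 35 cell cycle genes 18 were higher (median 0.00), but the median was -0.33 without control replicate 1 and 0.36 without control replicate 2. Of 19 clock genes 9 were higher (median -0.07), with -0.38 without control replicate 3 and 0.15 without control replicate 1. Of 20 p53 targets 14 were higher (median 0.14), of 19 immediate early genes 13 (median 0.11) and of 18 imprinted genes 10 (median 0.17). Without control replicate 2 the immediate early median was -0.06, and without control replicate 1 the imprinted median was -0.04.

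**Figure D5:**
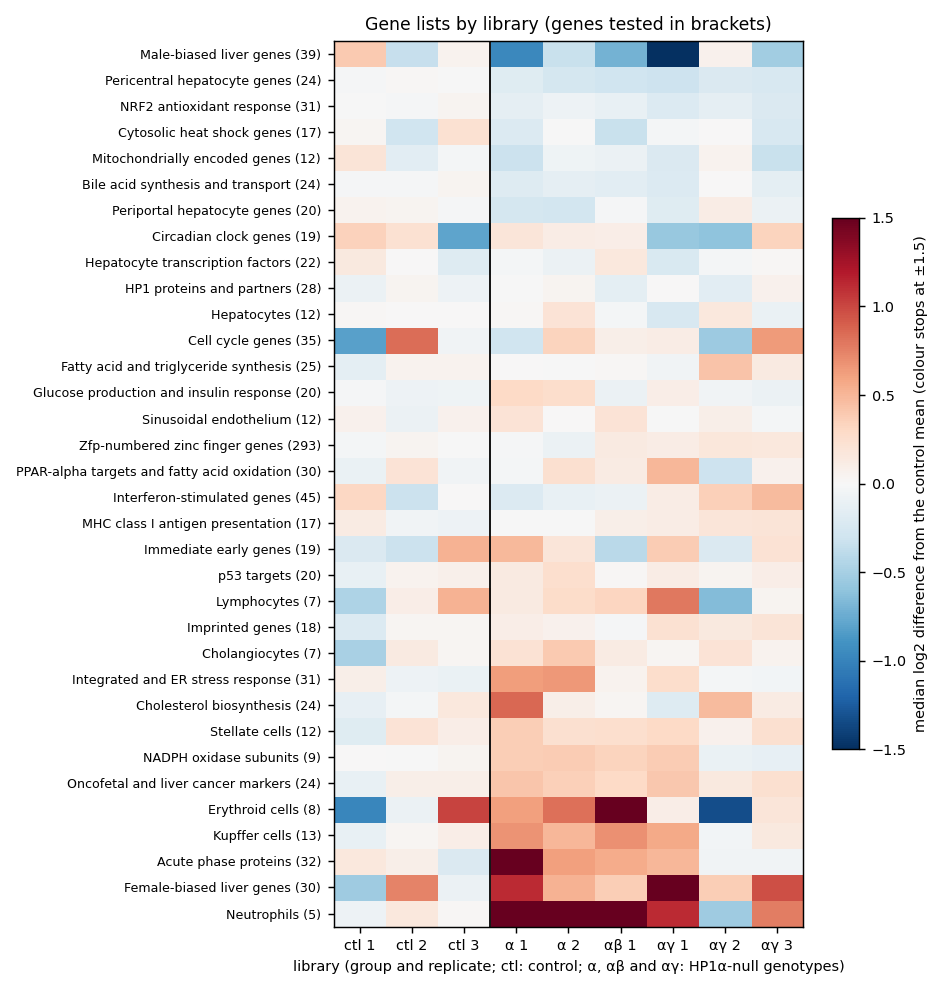
Median log2 difference from the control mean (colour, stopping at ±1.5) of the members of 34 gene lists (rows, number tested in brackets, ordered by the pooled median) in each of 9 livers (columns, controls left of the line). The rows for pericentral and NRF2 genes are blue and the row for oncofetal markers is red in all 6 mutant livers. The female-biased (0.37 to 2.68), stellate, cholangiocyte and p53 rows also lie above 0 in all 6. The acute phase and Kupffer rows take both signs within the mutants.

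Near Cbx5, Aaas and Tarbp2 did not overlap, both lower. They were 2 of 26 other genes tested within 1 Mb (7.69%) and 2 of 118 within 10 Mb (1.69%), against 3.14% of all genes. Across the genome, 9 runs of 3 non-overlapping genes of one direction lay with at most 500 kb between neighbours, 6 lower and 3 higher. Lower runs with members of one family were Aox1, Aox3 and Fam126b on chromosome 1, Akr1c13, Akr1c12 and Akr1e1 on chromosome 13, and Ugt2b34, Ugt2b36 and Ugt2b5 on chromosome 5. The other lower runs were Echdc2, Zyg11b and Gm17354 on chromosome 4, Suds3, Pebp1 and Vsig10 on chromosome 5, and Thnsl2, Chmp3 and Ptcd3 on chromosome 6. The higher runs were Hapln4, Klhl26 and Ssbp4, and C330011M18Rik, Gm26532 and Lyl1, both on chromosome 8, and Renbp, Flna and Emd on the X chromosome. In the Akr1c span all 7 genes tested were lower and in the Ugt2b span all 5. Each of the other spans held genes of both directions, from 7 lower of 8 in the Aox1 span to 3 higher and 3 lower in the Renbp span. Every such count includes the 3 genes that define the span, whose direction the choice fixes, so only the remaining genes could differ. Ugt2b5, a glucuronosyltransferase, was at 28622 to 30919 in control and 10885 to 22124 in the mutants. Members of the Aox, Akr1c and Ugt2b families are similar in sequence and may share reads.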

How the data were processed

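Per the labels' protocols, stranded libraries were prepared from ribosome-depleted RNA of 9 frozen livers. Tools named, without their roles, are DESeq2 1.0.19, HTSeq 0.5.4p3, Bowtie2 2.1.0, TopHat2 2.0.10 and CASAVA 1.8.2, on mm10, per the submitters' processing notes. Neither annotation nor strand setting is stated in the sources used here. The authors deposited a normalised signal per gene and library. Low values step by a fixed amount per read in each library (100% whole within 0.1 read), so reads and size factors (0.545 to 1.25) were recovered.

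The test was limma 3.58.1 under R 4.3.3, with trended shrinkage of values as log2(value + 1), 6 HP1α-null against 3 control livers (7 residual and 3.18 prior degrees of freedom), for 13845 genes. Genotype contrasts and the F test came from 1 fit of 4 groups, in which the lone HP1alpha_beta_KO liver was assumed to vary like the others. edgeR 4.0.16 and DESeq2 1.42.0 were run on the recovered reads. All were tested on simulated data. Calls were at an adjusted p under 0.05. The members and lists were chosen with earlier results of these data known.

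Genes were named by rule: Cbx5, Cbx1 and Cbx3; per direction the 12 with the smallest p and the 6 widest among non-overlapping genes whose higher group averaged 50 or more; 4 per list; 5 by the F test; and the nearest gene on each side of the filter. Unnamed models, Xist and Y-linked genes were left out of the rule. Other names, in counts of 5 or fewer, neighbouring runs, further DESeq2 calls and genes past 1 in each genotype, were chosen after their values were seen. Coordinates are from GENCODE M21 (GRCm38), which held 22257 of 22701 genes (98.0%). Replicates differed beyond counting noise, so none was taken as a copy. Python 3.11.15, numpy 2.4.6, pandas 2.3.3 and matplotlib 3.10.9 were used.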

Additional observations from a re-analysis of the deposited data

Results flagged for a closer look

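Of 41 values tested for a liver far from the other HP1α-null livers, 3 were beyond Dixon's 95% limit (0.625 for 6 values). For values not chosen from the data, chance passes that limit in about 1 of 20. Most of these genes were chosen from the values of these same livers, which hold 3 genotypes, so that share does not apply here. Entpd5 was lowest in HP1alpha_gamma_KO replicate 1, at 5200 against 6088 to 6393 in the other 5. Nucb2 was highest in the same liver, at 230 against 127 to 152 in the other 5, and so came near the lowest control (237). Clec2h was lowest in HP1alpha_beta_KO, at 4.79 against 106 to 384 in the other 5. It had been named by the F test among genotypes, which that same value enters.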

How the results depend on the processing

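The limma count of 0 pooled calls was 1 without the mean trend (Tmsb15b1) and 1 without the HP1alpha_gamma_KO livers (Cyp2c39). Without 1 library it ranged from 0 to 1, the call being Rpl3-ps1 without control replicate 3. DESeq2 called 28 genes pooled, 8 memberships in lists, and 291 genes among genotypes, where limma without 1 library called 0 to 4. List memberships called by limma numbered 1 without HP1alpha_gamma_KO. The DESeq2 count was 7 to 71 without 1 library (16 without HP1alpha_beta_KO, 14 of them among the 28). It was 59 without the HP1alpha_KO livers (18 among the 28), 222 without HP1alpha_gamma_KO (17 among the 28) and 50 in a fit of 4 groups (18 among the 28). The 435 non-overlapping genes became 525 to 1102 without 1 library, 974 without HP1alpha_KO and 2549 without HP1alpha_gamma_KO, counts that grow as fewer livers must part. The 5963 genes of one sign were 9049 with no filter, where more genes are counted, and 5281 to 6791 without 1 library. Apart from these, the cause was not tested. Higher and lower non-overlapping genes were 194 and 241, but 219 and 200 with TMM scaling and 198 and 205 with equal totals. The main limma fit called 0 genes, so it held no called value that could reverse. The sign of 13 of 34 list medians changed in some setting, the largest at 0.29 (erythroid), and leaving out 1 library moved 26 of 34 by over 1.5 times or to another sign. Sequencing depth of HP1alpha_KO replicate 1 limits low genes there. No paired analysis was possible because the labels give animal numbers and no shared replicate numbers. Sequencing project as a covariate was not run, as the columns do not say which project each library belongs to. DESeq2 by leaving out a library or a genotype, in 4 groups and with other filters was chosen after seeing the data.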

Other observations

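Some transcripts were far higher in 1 to 3 livers than in the rest. Rps2-ps13, a ribosomal pseudogene, was read at 2066, 2000 and 1825 in control replicates 2 and 3 and HP1alpha_gamma_KO replicate 2, and at 3.79 or less in the other 6 livers. Ren1, the renin gene, was at 266 in control replicate 1 and at 1.84 or less in the other 8. The imprinted RNAs Meg3 and Rian were at 121 to 132 and 193 to 213 in HP1alpha_gamma_KO replicates 2 and 3, against 14.6 to 30.1 and 27.5 to 55.0 in the other 7. These were chosen after their values were seen.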
